A study of Homo sapiens with 4 samples.

Results

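Small promoter-promoter loops are chromatin loops of 90 kb or less that bring the start sites of different protein-coding genes together. They were chosen from the deposited loop lists by position alone. Each anchor, extended by 5 kb on both sides, had to hold the start site (gene 5′ end) of a coding gene, different genes had to stand at the 2 anchors, and loops lying within the body of 1 coding gene were left out. Size was measured from the start of the first anchor to that of the second. Over the 4 libraries, 3071 distinct anchor pairs met this rule, of 52058 distinct anchor pairs in all and 16379 of 90 kb or less. Positions are in GRCh37 (hg19), and genes are those of GENCODE 44 lifted to that build.

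Hi-C, which counts contacts between stretches of chromatin, was done with the Arima kit on MDA-MB-231 cells, an established triple-negative breast cancer line. The vehicle group received DMSO and the THZ1 group received 75 nM THZ1, a covalent inhibitor of CDK7, for 48 h. Each group had 2 libraries, which the labels call technical replicates, so the tests measure only the spread between these libraries. The comparison asks how CDK7 inhibition changed the loops between neighboring promoters. No gene expression stands in the loop lists, so the identity of the line was not checked against markers, and no read totals stand there either.

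CDK7 is the kinase of the general transcription factor TFIIH and phosphorylates RNA polymerase II as it starts transcription. Active promoters that lie near each other on a chromosome often meet in Hi-C maps, and such contacts are weaker and shorter than the loops that cohesin forms between CTCF sites. Cohesin loops usually end at CTCF motifs that face each other, whereas promoter contacts form at CpG-rich promoters with or without CTCF.

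The promoters below are those of loops that the results turn on, and were read from the GRCh37 genome as the 200 bases upstream of the annotated start site, on the gene's own strand. Capitals mark matches, on either strand, to any of 8 motifs: the GC box GGGCGG, the CCAAT box CCAAT, the TATA box TATAAA, the ETS motif CCGGAAG, the E-box CACGTG, the CRE TGACGTCA, the AP-1 motif TGANTCA and the YY1 motif AAGATGGC. None of these motifs contains another, and windows that overlap an annotated exon are not shown. The first is from the loop joining KBTBD6 and KBTBD7, among the loops that weakened most with THZ1.
KBTBD7 (chr13:41768706-41768905, minus strand): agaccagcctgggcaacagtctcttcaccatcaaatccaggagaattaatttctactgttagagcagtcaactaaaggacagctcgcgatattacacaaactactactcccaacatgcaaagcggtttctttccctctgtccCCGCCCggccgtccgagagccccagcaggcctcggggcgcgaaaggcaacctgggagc
The next pair are the partners of the vehicle-only loop with the highest contact enrichment.
CD99L2 (chrX:150067290-150067489, minus strand): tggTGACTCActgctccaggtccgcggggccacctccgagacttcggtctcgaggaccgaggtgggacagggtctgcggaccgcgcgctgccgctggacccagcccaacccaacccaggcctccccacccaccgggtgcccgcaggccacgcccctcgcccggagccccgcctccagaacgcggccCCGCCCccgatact
HMGB3 (chrX:150148782-150148981, plus strand): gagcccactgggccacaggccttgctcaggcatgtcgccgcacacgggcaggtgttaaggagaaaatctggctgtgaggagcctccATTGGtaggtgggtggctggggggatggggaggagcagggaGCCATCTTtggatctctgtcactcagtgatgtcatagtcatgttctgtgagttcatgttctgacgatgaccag
The following promoter belongs to a loop called in THZ1 libraries only.
NAP1L4 (chr11:3013608-3013807, minus strand): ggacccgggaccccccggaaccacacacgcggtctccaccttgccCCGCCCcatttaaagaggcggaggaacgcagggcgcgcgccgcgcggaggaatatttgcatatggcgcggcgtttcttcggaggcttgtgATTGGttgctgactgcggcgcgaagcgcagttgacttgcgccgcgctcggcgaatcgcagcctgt
The last pair stand at the 2 loops with the most contacts in all 4 libraries.
AP3B1 (chr5:77590587-77590786, minus strand): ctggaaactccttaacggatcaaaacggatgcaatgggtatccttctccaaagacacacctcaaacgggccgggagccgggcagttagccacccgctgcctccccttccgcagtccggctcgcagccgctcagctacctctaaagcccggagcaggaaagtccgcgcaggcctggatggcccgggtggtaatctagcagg
GSTA4 (chr6:52860103-52860302, minus strand): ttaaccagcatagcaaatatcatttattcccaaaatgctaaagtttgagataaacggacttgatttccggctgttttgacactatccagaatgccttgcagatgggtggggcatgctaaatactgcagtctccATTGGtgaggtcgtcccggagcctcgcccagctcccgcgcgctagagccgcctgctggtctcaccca

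These promoters differed widely in composition. That of CD99L2 was 74.5% G and C and held a GC box and an AP-1 motif, whereas that of GSTA4 was 51% G and C with a single CCAAT box. The window of AP3B1 held none of the 8 motifs. A match is a description of the letters only.

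Vehicle libraries held about 2 times as many small promoter-promoter loops as THZ1 libraries. Vehicle replicates 1 and 2 held 1550 and 1737, and THZ1 replicates 1 and 2 held 890 and 797. Both THZ1 libraries were below both vehicle libraries. The means were 1644 ± 132 with vehicle and 844 ± 65.8 with THZ1 (SD, n = 2 each), a 1.95-fold difference (exact two-sided permutation p = 0.333, the smallest that 2 libraries against 2 allow). When the same number of loops, 15066, was taken from each library by contact enrichment, the ratio was 1.21. This cut changed both list length and which loops were kept, so it is not a correction for list length alone.

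The other classes of small loops were lower by similar factors. Loops inside 1 gene were 2.07-fold more numerous with vehicle, loops from a promoter to a stretch without one 1.97-fold, and loops with no promoter at either anchor 2.00-fold. Of the loops of 90 kb or less, 20.0% and 19.5% were promoter-promoter loops in the 2 vehicle libraries, as were 19.7% and 20.7% in the 2 THZ1 libraries. The groups overlapped, and the means of 19.8% ± 0.375 and 20.2% ± 0.709 (SD, n = 2 each) did not differ beyond the spread (exact permutation p = 0.667). Among loops of all sizes, their share was lower with THZ1, at 5.23% ± 0.0864 against 7.32% ± 0.206 (SD, n = 2 each; exact permutation p = 0.333). Promoter-promoter loops of over 90 kb were 1.42-fold more numerous with vehicle, so that 42.2% of promoter-promoter loops were small with vehicle and 34.7% with THZ1.

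**Figure D1:**
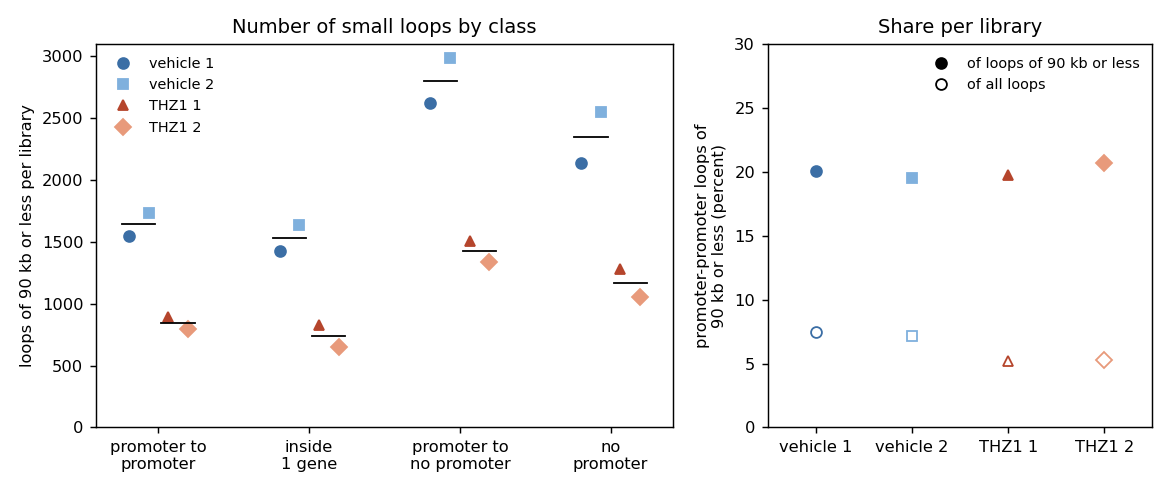
Left, the number of loops of 90 kb or less in each library, by what stands at their anchors; points are libraries and bars are means of 2. Right, small promoter-promoter loops as a percentage of loops of 90 kb or less (filled) and of all loops (open). Every class is about 2 times as numerous with vehicle, and the filled points lie between 19.5% and 20.7% in all 4 libraries.

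The ratio was highest for the shortest loops. Between 0 and 50 kb, vehicle libraries held 748 and 826 of these loops and THZ1 libraries 394 and 341, a 2.14-fold difference. The ratio was 1.80 for those over 50 to 70 kb and 1.79 for those over 70 to 90 kb. Other small loops gave ratios of 2.25, 1.87 and 1.71 in the same ranges. The median size was 55 kb in 3 libraries and 60 kb in THZ1 replicate 2, and the mean size was 57.4 kb ± 0.112 with vehicle and 58.7 kb ± 0.0209 with THZ1 (SD, n = 2 each). The lists held no loop under 35 kb. At the limit of the rule, 106 and 105 loops of exactly 90 kb entered with vehicle, 59 and 51 with THZ1, while 146, 180, 108 and 90 promoter-promoter loops of over 90 to 100 kb stayed out.

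The lower number with THZ1 was seen on each of the 23 chromosomes that carried such loops. Both vehicle libraries were above both THZ1 libraries on each of them, with ratios from 1.25 on chromosome 21 to 3.69 on chromosome 15 (median 1.87). On chromosome 15 there were 28 and 31 with vehicle, against 7 and 9. Gene-dense chromosome 19 held the most per gene, 15.5 for every 100 coding genes with vehicle and 6.99 with THZ1.

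The number of calls differed most in the highest range of contact enrichment. Enrichment is the number of contacts observed at the loop divided by the number expected from the donut-shaped neighborhood around it. Vehicle libraries held 386 and 424 loops above 5 and THZ1 libraries held 99 and 79, a 4.55-fold difference. Loops at 2.5 or less numbered 89, 112, 126 and 119 in the same order, so that they were no fewer with THZ1. Each loop was placed by its own library's enrichment, which was lower with THZ1, so these counts do not show which loops changed most. The median enrichment was 3.92 in vehicle replicate 1, 3.99 in vehicle replicate 2, 3.30 and 3.26 with THZ1, without overlap (means 3.96 ± 0.0503 and 3.28 ± 0.0275, SD, n = 2 each; exact permutation p = 0.333).

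Both parts of the ratio moved, as counts not scaled for read depth, which could not be compared between libraries. Median observed contacts per loop were 27 and 30 in vehicle libraries, against 33 and 32 after THZ1, and the median donut expectation was 6.72 and 7.41 against 9.83 and 9.68. The expectation was thus 1.38-fold higher with THZ1 at called loops, and it was 1.36-fold higher at other small loops and 1.38-fold at loops over 90 kb. These medians are over different loops in each library. At the 212 small promoter-promoter loops listed with the same anchors in all 4 libraries, observed contacts went the other way. Their median log2 ratio of THZ1 to vehicle was -0.16, and that of the donut expectation 0.36. The part of the expectation in the lower number of calls was not tested. Contacts at small promoter-promoter loops summed to 47964 and 58667 with vehicle, and to 33255 and 28577 with THZ1, sums that move with the number of calls.

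**Figure D2:**
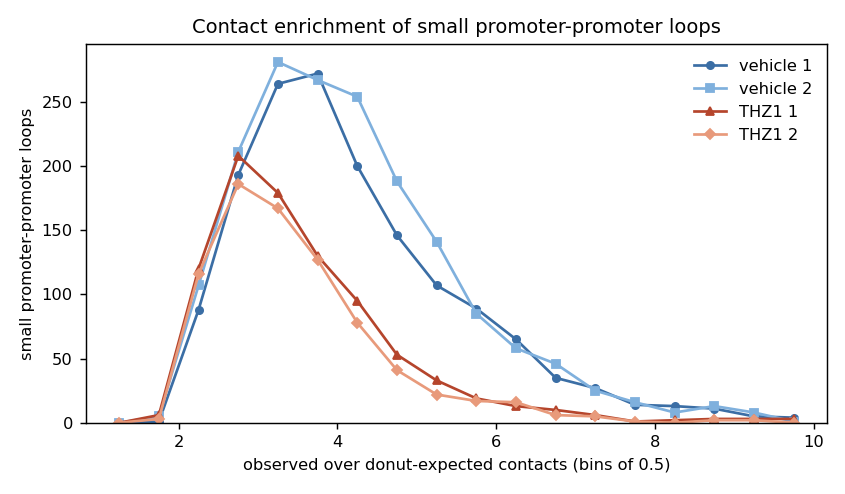
Number of small promoter-promoter loops in each library by observed over donut-expected contacts, in bins of 0.5 up to 10. The 4 libraries run together up to an enrichment of about 3, and in every bin from 3 to 9.5 both vehicle lines lie over both THZ1 lines.

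Sharing between lists was compared next. The vehicle lists were the longer, with 7740 and 8910 loops of 90 kb or less against 4513 and 3846, and a longer list can hold more of another's loops, so the shares in the 2 directions are descriptions. A loop was counted as called in another library when that list held a loop with both anchor midpoints within 20 kb. Of the small promoter-promoter loops of THZ1 replicate 1, 84.4% and 90.4% were called in vehicle replicates 1 and 2, and of those of THZ1 replicate 2, 85.7% and 90.3%. In the other direction, 50.8% and 47.2% of those of vehicle replicate 1 and 47.6% and 43.2% of those of vehicle replicate 2 were called in THZ1 replicates 1 and 2. Within a condition, 81.5% of vehicle replicate 1 was called in vehicle replicate 2 and 64.3% of THZ1 replicate 1 in THZ1 replicate 2, while in the reverse direction both shares were 71.0%. The 95% Wilson intervals in the plot of shared loops cover counting error only. By exact anchors, 212 of the 3071 pairs stood in all 4 lists and 1913 in 1 list.

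**Figure D3:**
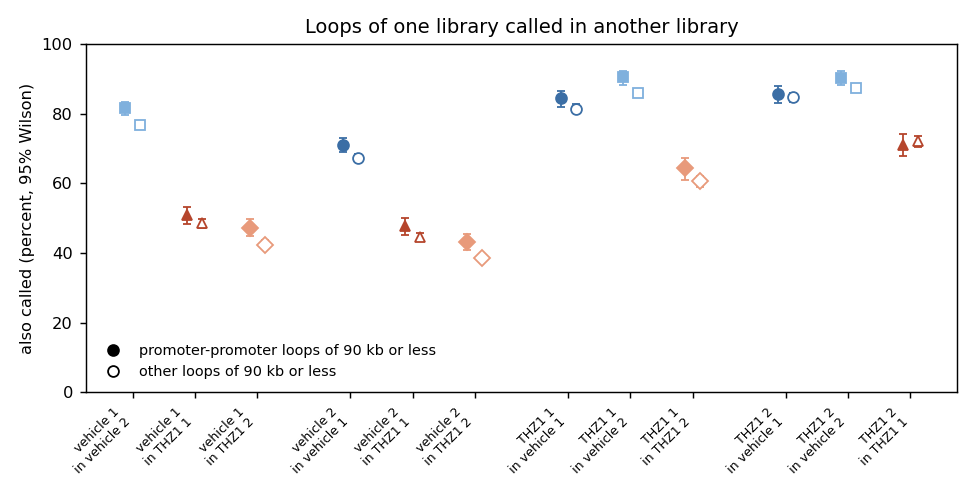
Percentage of the loops of 1 library that another library also called, with 95% Wilson intervals; filled symbols are small promoter-promoter loops, open symbols other loops of 90 kb or less, and colors mark the library searched. Small promoter-promoter loops of THZ1 libraries were found in vehicle lists at 84.4% to 90.4%, and those of vehicle libraries in THZ1 lists at 43.2% to 50.8%; other small loops ran from 81.5% to 87.4% and from 38.4% to 48.5%.

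Loops called in both vehicle libraries and neither THZ1 library numbered 371 when counted from vehicle replicate 1 (23.9% of its small promoter-promoter loops) and 361 from replicate 2 (20.8%). Over loops of any size, that pattern held for 16.4% of the list of vehicle replicate 1 and 14.2% of that of replicate 2, and for other small loops 24.0% and 21.0%, so the share was close to that of small loops in general. The reverse pattern, both THZ1 libraries and neither vehicle library, held for 6 loops from THZ1 replicate 1 (0.674%) and 8 from replicate 2 (1.00%). It held for 4.58% and 5.38% of the loops of any size in these lists and for 43 of 3623 and 46 of 3049 other small loops. With identical anchors in place of 20 kb, the THZ1 count was 44 and the vehicle count 317. Without vehicle replicate 1, vehicle replicate 2, THZ1 replicate 1 or THZ1 replicate 2, and with fewer lists to meet the rule, the vehicle count was 721, 596, 560 or 520 and the THZ1 count 17, 39, 43 or 44. In the tables of condition-unique loops that the authors deposited, 53 of 644 vehicle-unique loops of 90 kb or less were promoter-promoter loops (8.23%). Among THZ1-unique ones this was 1 of 58 (1.72%). Both shares were below the 19.5% to 20.7% found among loops of 90 kb or less in the library lists. Those tables are not parts of the library lists, however. Of the 53, 20 and 22 were called in vehicle replicates 1 and 2, and 2 and 1 in THZ1 replicates 1 and 2. The THZ1-unique one was called in none of the lists, so the shares are descriptions of unlike sets.

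Of the vehicle-only loops, the most enriched joined CD99L2, a membrane glycoprotein gene, to HMGB3, which encodes a chromatin protein, over 85 kb on chromosome X. Its anchors were chrX:150065001-150070000 and chrX:150150001-150155000. It had 15 contacts in each vehicle library, 11.8 and 10.1 times the donut expectation. The next joined BRD1, a scaffold of a histone acetyltransferase complex, to ALG12 and CRELD2, 2 genes of the endoplasmic reticulum, over 90 kb on chromosome 22, with 14 and 16 contacts at enrichments of 7.53 and 7.76. The third joined MBD2, which encodes a methyl-CpG binding protein, to POLI, a translesion DNA polymerase, over 45 kb on chromosome 18, with 18 and 22 contacts at 6.36 and 8.21. With 14 to 22 contacts per library, each of these 3 rests on few counts, and loops that a list leaves out have no value there.

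The 5 that followed had mean enrichments of 6.04 to 6.87. They joined the Wnt receptor gene FZD4 to TMEM135, KLF16 to ADAT3 and SCAMP4, the zinc finger genes ZNF845 and ZNF765, LRBA to the ribosomal protein gene RPS3A, and IFT27, an intraflagellar transport gene, to NCF4, which encodes a subunit of the phagocyte NADPH oxidase. FZD4 to TMEM135 had the most contacts of the 8, 42 and 48. For IFT27 to NCF4, vehicle replicate 1 listed 10 kb anchors and replicate 2 listed 5 kb anchors.

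Only 6 loops met the reverse rule from THZ1 replicate 1. The strongest joined SPI1, which encodes the hematopoietic factor PU.1, to RAPSN, an acetylcholine receptor clustering gene, over 80 kb on chromosome 11 (anchors chr11:47395001-47400000 and chr11:47475001-47480000). It had 15 and 21 contacts in the THZ1 libraries, 5.04 and 6.43 times the expectation. The imprinted gene PHLDA2 and the histone chaperone gene NAP1L4 were joined over 60 kb with 28 and 25 contacts at 3.48 and 3.31. The other 4 had mean enrichments of 2.57 to 3.21. They joined ABCE1 and ANAPC10 to OTUD4, SDHD and TIMM8B to the cytokine gene IL18, the polycomb gene PHC3 to the kinase gene PRKCI, and ITM2B to the tumor suppressor gene RB1. The 2 THZ1 libraries listed the loops of ABCE1, SDHD and PHC3 with different anchors. For ABCE1 these were 10 kb wide in replicate 1 and 5 kb wide in replicate 2, and for SDHD and PHC3 the first anchor was shifted.

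Every library gives a value for a loop listed with the same anchors 4 times, and strength was compared there. Of 2624 such loops of any size, 1 had a donut expectation of 0 and was left out. Observed contacts of the other 2623 were fitted with edgeR's quasi-likelihood test, with the log of the donut expectation as offset, and p-values were adjusted by Benjamini-Hochberg over all 2623. The 212 small promoter-promoter loops were all tested. Being called in 4 lists, they are the stronger loops, with median enrichments of 5.23 and 5.31 with vehicle, against 3.82 and 3.61.

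Contact enrichment at these loops was lower with THZ1, as it was at the other small loops. In the edgeR test, 77 of 212 (36.3%) were lower with THZ1 at an adjusted p under 0.05 and 0 were higher, against 25.1% lower and 0.0762% higher over all tested loops. The median log2 ratio of THZ1 to vehicle was -0.52, against -0.41 over all tested loops and -0.47 over the 711 other small loops, of which 249 (35.0%) were lower. Both THZ1 libraries lay below both vehicle libraries for 168 of the 212 and above for 1, where over all tested loops this held for 68.7% and 1.18%. At an unadjusted p under 0.05, 118 of the 212 had changed, as had 376 of the 711 other small loops and 1072 of all 2623.

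The direction was steadier than the number of calls. The median log2 ratio of the 212 stayed between -0.56 and -0.36 with the bottom-left, horizontal or vertical neighborhood as the expectation, with DESeq2 and without each library in turn, and was -0.16 when contacts were scaled by TMM with no expectation. TMM alone called 14 of the 212 lower and 1 higher, and 114 lower and 73 higher over all tested loops. Without scaling for depth, the median log2 ratio of observed contacts over all tested loops was -0.01 and that of the donut expectation 0.40. At the 212 these were -0.16 and 0.36. Without any 1 library, which leaves 1 against 2, edgeR called none of the 2623 loops lower after adjustment (83 to 94 of the 212 changed at an unadjusted p under 0.05), so these fits say nothing about single calls. The bottom-left expectation gave 75 of the 212, and 5 to 14 passed with the horizontal or vertical expectation, with no expectation or with DESeq2.

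**Figure D4:**
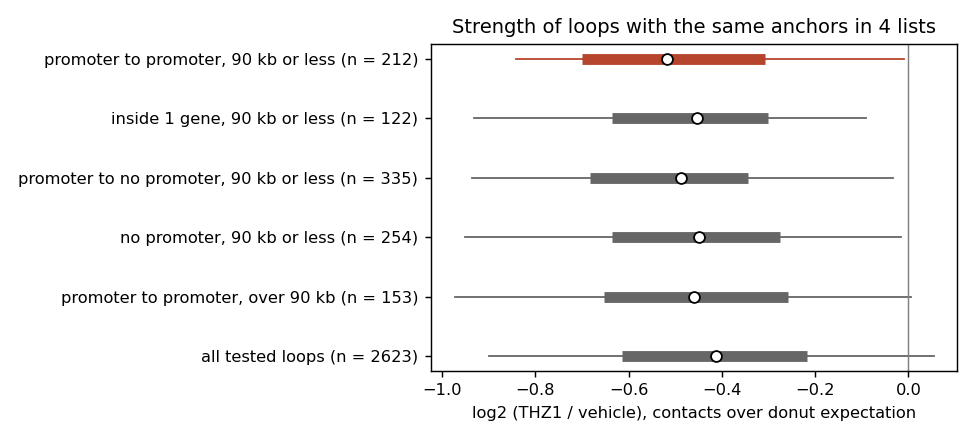
Log2 ratio of THZ1 to vehicle in contacts over the donut expectation, for loops with the same anchors in 4 lists; circles are medians, thick bars the middle 50% of loops and thin lines the middle 90%. Small promoter-promoter loops have a median of -0.52, and the median of every class lies below 0, while the upper end of the middle 90% is above 0 for all tested loops and for promoter-promoter loops over 90 kb.

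The gap to other small loops was small in both conditions, and slightly smaller in both THZ1 libraries than in both vehicle libraries. On the log2 enrichment scale, the difference in medians was -0.0615 and -0.0971 with vehicle, against -0.0435 and -0.0608 with THZ1. The difference between conditions was 0.03 in size (exact permutation p = 0.333, the smallest possible). Promoter-promoter loops of over 90 kb had a median log2 ratio of -0.46, with 46 of 153 lower.

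SLC35A3, which encodes a Golgi transporter of UDP-N-acetylglucosamine, and MFSD14A were joined over 65 kb on chromosome 1 by the loop that fell most (anchors chr1:100435001-100440000 and chr1:100500001-100505000). It had 54 and 56 contacts with vehicle, 42 and 28 after THZ1, and enrichments of 8.78, 7.05, 3.93 and 2.75. Both THZ1 values lay below both vehicle values, as the rule for naming this loop required. The log2 ratio was -1.22 ± 0.21 (SE; edgeR adjusted p = 0.00472). With TMM and no expectation it was -0.63 (edgeR adjusted p = 0.0498), and with the horizontal expectation the adjusted p was 0.0797.

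The loop between KBTBD6 and KBTBD7, adaptor genes of a CUL3 ubiquitin ligase that lie 60 kb apart on chromosome 13, had 46, 52, 34 and 25 contacts (here and from here on, 4 values in a row are those of the 2 vehicle libraries and then of the 2 THZ1 libraries). Its enrichments of 11.8 and 10.8 with vehicle stood against 6.09 and 4.41 with THZ1, a log2 ratio of -1.09 ± 0.22 (SE; edgeR adjusted p = 0.00687). With TMM and no expectation it was -0.71 (edgeR adjusted p = 0.0369). KBTBD7 is the gene whose promoter is shown above.

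The other 3 of the 5 largest falls joined SCRN1 to FKBP14 and PLEKHA8, HNRNPL to NFKBIB and SIRT2, and RCHY1 and THAP6 to ODAPH. HNRNPL encodes an RNA-binding splicing regulator, NFKBIB an inhibitor of NF-κB, SIRT2 a deacetylase and RCHY1 a ubiquitin ligase. Their log2 ratios were -1.03, -1.01 and -1.01 (edgeR adjusted p = 0.00746, 0.00618 and 0.00944). For HNRNPL to NFKBIB and SIRT2, enrichments were 6.97 and 6.89 with vehicle, against 3.41 and 3.43, on 49, 56, 35 and 32 contacts. Without any 1 library, the log2 ratios of the 5 loops stayed between -1.50 and -0.79 and their edgeR adjusted p ran from 0.0632 to 0.139. With TMM and no expectation, the log2 ratios were -0.44 for SCRN1, -0.63 for HNRNPL and -0.34 for RCHY1 (edgeR adjusted p = 0.1, 0.058 and 0.474), and none of the 3 passed with the horizontal expectation.

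**Figure D5:**
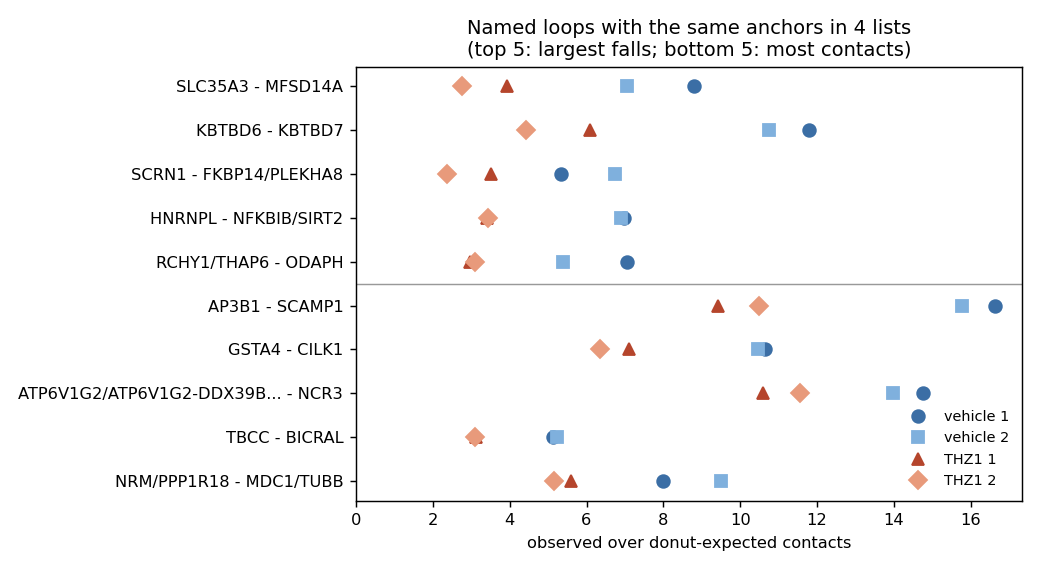
Observed over donut-expected contacts in each library for 10 loops with the same anchors in 4 lists, the 5 with the largest fall (top) and the 5 with the most contacts (bottom). Both THZ1 points lie to the left of both vehicle points in each loop, which the choice of the top 5 fixes for those.

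Among loops listed 4 times with the same anchors, 5 had the most contacts. AP3B1, a subunit of the AP-3 adaptor, and SCAMP1, a membrane trafficking gene, were joined over 65 kb on chromosome 5 with 142, 146, 109 and 117 contacts. The enrichments were 16.6, 15.8, 9.43 and 10.5, so both THZ1 values lay below both vehicle values. GSTA4, a glutathione transferase gene, and CILK1, a kinase gene of the cilium, had 132, 162, 107 and 103 contacts at 10.6, 10.5, 7.11 and 6.34.

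The anchor in the major histocompatibility region that holds the start site of ATP6V1G2, a proton pump subunit gene, with DDX39B and NFKBIL1 in its 5 kb extension, was joined to NCR3, a natural killer cell receptor gene, with 113, 117, 126 and 124 contacts. Contacts, which were not scaled for depth, were thus higher with THZ1. The enrichments, 14.7, 14.0, 10.6 and 11.6, were lower, and the donut expectation was 7.66, 8.36, 11.9 and 10.7. TBCC, a tubulin folding cofactor gene, and BICRAL, a chromatin remodeling gene, had enrichments of 5.14, 5.23, 3.11 and 3.10. NRM and PPP1R18 were joined to MDC1, a mediator of the DNA damage response, and the tubulin gene TUBB at 7.99, 9.50, 5.58 and 5.15.

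A start site lay at a small promoter-promoter loop for 5113 of 20162 coding genes (25.4%) over the 4 libraries, for 3551 and 3893 in 1 vehicle library each and for 2187 and 2040 in 1 THZ1 library each. There were 73, 111, 15 and 10 genes at 3 or more such loops, a 7.36-fold difference. They made up 2.45% of the genes at such loops with vehicle and 0.588% with THZ1, and the part of the lower number of loops (1.95-fold) in this was not tested. Distinct pairs of joined genes numbered 2978 and 3349 against 1708 and 1586 (1.92-fold). Of 4790 pairs in all, 711 were joined in all 4 libraries, 706 in both vehicle libraries and neither THZ1 library, and 64 in both THZ1 libraries and neither vehicle library. For genes, 1120 stood at such loops in all 4 libraries, 774 in both vehicle libraries alone and 43 in both THZ1 libraries alone.

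DNAAF3, a gene for assembly of ciliary dynein on chromosome 19, stood at most distinct loops, 9 over the 4 libraries, together with an unnamed coding gene at the same anchors. It had 3, 4, 1 and 1 loops, reaching EPS8L1, PPP1R12C, PPP6R1, PTPRH and RDH13. KCTD11 and TMEM95, neighbors on chromosome 17, stood at 8 distinct loops and had 3, 3, 1 and 3. PFKFB4, a regulator of glycolysis on chromosome 3, stood at 7 and had 3, 4, 1 and 2. It was 1 of 10 genes at 7 distinct loops and is named as the first by position, and others of the 10 had no fewer loops with THZ1, such as SIT1 on chromosome 9 with 2, 3, 3 and 2. Distinct loops with anchors a few kb apart can be 1 contact listed at different anchors in different libraries.

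Zinc finger genes, the largest of 16 gene groups, had 219 of 544 genes (40.3%) at such loops and 106, 126, 57 and 43 loops. Of these loops, 62, 74, 36 and 26 had a zinc finger gene at both anchors. The ratio of vehicle to THZ1 was 2.32, against 1.95 over all small promoter-promoter loops, a difference that was not tested. ZNF844 to ZNF20, over 80 kb on chromosome 19, was listed in all 4 libraries with 59, 71, 44 and 45 contacts at enrichments of 9.48, 8.89, 6.18 and 6.75.

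Similar shares were found in 5 groups of basic cell functions. Histone genes stood there for 34 of 76 (44.7%), genes of the transcription machinery for 31 of 70 (44.3%), ribosomal protein genes for 37 of 86 (43.0%), genes of the mitochondrial ribosome and respiration for 90 of 211 (42.7%), and ubiquitin and proteasome genes for 38 of 96 (39.6%), where 25.4% of all coding genes did. The ratios of vehicle to THZ1 loops in these groups were 1.38, 1.63, 1.6, 1.96 and 1.62. At the histone cluster of chromosome 6, the loop from H2AC6 and H2BC4 to H1-4 and H2BC5 had 100, 113, 99 and 68 contacts at 6.65, 6.61, 4.22 and 3.86. MED17, a Mediator subunit gene, was joined to C11orf54 with 59, 75, 92 and 70 contacts at 5.79, 6.62, 4.97 and 3.74. ERCC2, which like CDK7 encodes a subunit of TFIIH, was joined to POLR1G and PPP1R13L with 40, 77, 48 and 41 contacts at 3.0, 4.73, 3.12 and 2.46, with overlap between the groups.

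Of 22 condensin and cohesin genes, 7 (31.8%) stood at such loops, against 25.4% of all coding genes, with 6, 5, 6 and 3 loops, so the groups overlapped. NCAPD2, a condensin subunit gene, was joined to GAPDH, a glycolytic gene, over 40 kb on chromosome 12 with 34, 36, 31 and 27 contacts at 4.48, 4.05, 2.48 and 2.44. Of 40 mitotic regulators, 14 (35%) stood at such loops, with 10, 14, 9 and 7 loops. ECT2, a cytokinesis gene, was joined to NCEH1 with 94, 92, 91 and 82 contacts at 7.64, 7.19, 5.11 and 4.59.

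None of 39 HOX genes stood at such a loop. For keratin genes this was 7 of 55 (12.7%), with 0, 3, 2 and 2 loops, and for chemokine and interleukin genes 6 of 78 (7.69%), with 3, 4, 2 and 3. Keratins were the only one of the 16 groups with more loops with THZ1 than with vehicle (ratio 0.75), on at most 3 loops per library. That direction rests on vehicle replicate 1, which had 0, as vehicle replicate 2 had more than either THZ1 library. Collagen and matrix genes stood there for 18 of 116 (15.5%) and had 16, 20, 11 and 7, among them COL1A1 to TMEM92 with 85, 99, 70 and 55 contacts at 9.14, 8.11, 5.41 and 4.96. For S100 and epidermal differentiation genes, 12 of 48 (25%) stood at such loops, near the share of all coding genes. They had 6, 9, 4 and 4 loops, and S100A5 and S100A6 were joined to S100A2 with 97, 139, 105 and 77 contacts.

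Immediate early and AP-1 genes had as many loops with THZ1 as with vehicle, 6, 5, 6 and 5, with NR4A1 to SMIM41 at enrichments of 12.7, 9.24, 8.74 and 9.05. Interferon and antigen presentation genes had 12, 8, 6 and 7, metallothionein genes 1, 2, 1 and 1. The highest enrichments of all, 45.9, 45.7, 26.0 and 27.6, were listed between HLA-DRB5 and HLA-DRB1, near-identical genes whose reads can be misplaced, so that this value is uncertain.

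The direction of the joined genes was counted next. Among loops with a single start site at each anchor (792 and 900 with vehicle, 461 and 403 with THZ1), 30.7%, 29.1%, 33.4% and 32.8% were divergent, with their start sites facing away from each other. Convergent pairs made up 15.0% and 15.2% against 13.7% and 14.1%. Of all 21179 pairs of coding start sites 35 to 90 kb apart, 23.4% were divergent and 21.8% convergent, a description without a test. The divergent share was higher in both THZ1 libraries than in both vehicle libraries (means 33.1% ± 0.461 and 29.9% ± 1.11, SD, n = 2 each; exact permutation p = 0.333). No coding start site lay between the extended anchors for 58.7% of the loops with vehicle and 62.1% with THZ1.

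The start site often lay in the anchor itself. Both anchors held a start site without the 5 kb extension in 65.9%, 64.2%, 60.4% and 63.1% of the loops. Under that stricter rule the share among loops of 90 kb or less was 12.9% with vehicle and 12.5% with THZ1. With an extension of 10 kb it was 24.1% and 25.3%.

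Many of the promoters at these loops were CpG-rich. In the 200 bases upstream of the start site, 61.7% of the promoters of the genes at such loops were CpG-rich (over 55% G and C and a CpG ratio of observed to expected over 0.6), against 44.4% of genes at none and 48.8% of all coding genes. GC boxes were found in 55.6% against 43.4% (46.5% of all 20140 promoters without N), the ETS motif in 11.8% against 6.91% (8.15% of all), and TATA boxes in 4.58% against 9.32% (8.12% of all). CCAAT boxes stood in 29.2% of all promoters, E-boxes in 6.27%, the AP-1 motif in 4.38%, the CRE in 1.79% and the YY1 motif in 1.12%. For genes at such loops in both vehicle libraries alone and for those in all 4 libraries, 62.8% and 63.3% of promoters were CpG-rich, 57.8% and 58.7% held a GC box, 4.65% and 3.39% the AP-1 motif and 2.07% and 1.34% the YY1 motif, differences that were not tested. These shares are descriptions, since genes in 1 neighborhood share anchors.

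Few anchors of small promoter-promoter loops held a match to the CTCF core motif that was searched for. A match is a description of the letters, and CTCF binding was not measured here. Sites that differ from the searched letters are not counted, so the shares do not show how many anchors lack a CTCF site. Among loops with 5 kb anchors, a match on either strand was found in 5.12%, 5.48%, 5.97% and 6.22% of the anchors of small promoter-promoter loops. Of 571439 windows of 5 kb in the genome, 1.86% held one. Anchors of other small loops held it in 7.02% with vehicle and 9.78% with THZ1, and anchors of loops over 90 kb in 13.6% and 18.5%. The share was lower at small promoter-promoter loops than at other small loops in 4 of 4 libraries, with a difference of -2.70 ± 1.17 percentage points (SD, n = 4; exact two-sided sign-flip p = 0.125, the smallest 4 libraries allow). Loops inside 1 gene, a class of the other small loops, held it less often still, in 4.30%, 4.36%, 4.93% and 5.03% of their anchors. Both anchors held a match in 9, 8, 7 and 8 loops, too few to compare their direction.

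Small promoter-promoter loops lay inside contact domains less often than other small loops. A loop counted as inside when both anchors lay within 1 domain called by Arrowhead in the same library. This was so for 15.0%, 16.6%, 26.7% and 29.2%, against means of 30.8% with vehicle and 44.7% with THZ1 for other small loops. The difference from other small loops was -15.9 ± 2.09 percentage points and had the same sign in 4 of 4 libraries (SD, n = 4; exact two-sided sign-flip p = 0.125). The rise with THZ1 stood beside a rise in the domains called, from 1198 and 1398 with vehicle to 2477 and 2345 with THZ1, whose part in it was not tested.

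Nesting in larger loops went the same way between classes. It was found for 82.9% ± 3.27 of small promoter-promoter loops with vehicle and 81.2% ± 2.81 with THZ1 (SD, n = 2 each; exact permutation p = 0.667), and for 92.7% and 91.0% of other small loops. The difference between the classes was -9.79 ± 1.05 percentage points, with the same sign in 4 of 4 libraries (SD, n = 4; exact sign-flip p = 0.125). A domain boundary lay between the anchors of 5.85% of small promoter-promoter loops with vehicle and 6.33% with THZ1, against 3.11% and 4.03% of other small loops.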

How the data were processed

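Arima-HiC of MDA-MB-231 cells was analyzed in 2 vehicle and 2 THZ1 libraries from the processed lists. The authors ran Juicer 1.6 on hg19 (submitters' processing notes), and the file headers name juicer_tools 1.19.02. Of the deposited columns, observed holds counts of contacts at 1 pixel, made by the authors, the deposited expected values are a signal from 4 local neighborhoods on the scale of those counts, and the deposited FDR values (of the p-value type) reach 0.0997. HiCCUPS loops at anchors of 5, 10 and 25 kb were merged per library, and settings are not given in the sources used here. Deposited Arrowhead domains carry a score, which was not used. The authors' tables of unique loops hold pooled counts, and were used for positions alone. The lists hold called loops only and no read totals. The study's methods give a range of read depths over its samples but none per library, so depth could not be compared between libraries.

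Software was Python 3.11.15 with pandas 2.3.3, numpy 2.4.6, scipy 1.17.1 and matplotlib 3.10.9. Library values were compared by exact two-sided permutation over 6 splits. Strength was tested with edgeR 4.0.16 (R 4.3.3), and with DESeq2 1.42.0 as an alternative. In counts simulated on these 2623 loops, edgeR called 67% of 100 loops changed 2-fold, 22% of 100 changed 1.5-fold and 7 of 2423 unchanged loops. Whether loops with an expectation of 0 in another neighborhood should also be left out was settled after both counts had been seen, and the donut expectation alone was kept. The members, gene lists and rules were chosen with earlier results of these data known. The text names up to 5 tested loops with the largest fall and the largest rise among those past an adjusted p of 0.05 and changed alike in all 4 pairs of libraries (no rise passed), up to 8 loops called in 1 condition only with the highest mean enrichment, the 5 with most contacts in 4 lists, the 5 genes at most distinct loops, and up to 2 loops per gene list. Of 20162 coding genes, 601 have no symbol and are called unnamed or left out of names. Alternatives were other anchor extensions, sizes, FDR limits, transcript start sites, matching distances, expectations and scalings, and leaving out each library. Replicate numbers were not taken as a pairing of the libraries. Some promoter sequences are not reported here.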

Additional observations from a re-analysis of the deposited data

How the results depend on the processing

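The fold difference in the number of small promoter-promoter loops (1.95) and of joined gene pairs (1.92) stayed above 1 under every alternative run, from 1.84 to 2.06 and from 1.81 to 2.03 without each library in turn. With the same number of loops from each library they were 1.21 and 1.17. That setting shortened the longer lists and kept their most enriched loops, and the part of each in this was not tested. The share of all loops (THZ1 minus vehicle, -2.09 percentage points) was -1.53, -2.39 and -1.06 with no extension, a 10 kb extension and the same number of loops, and -2.23 to -1.94 without each library. The share of loops of 90 kb or less, 0.46 points higher with THZ1, was -0.36 with no extension and -0.18 with the same number of loops, with overlap. It was 1.17 with a 10 kb extension, 1.13 up to 60 kb, 0.91 with the start sites of all transcripts and 0.59 with all 4 FDR values at or below 0.01, and in these 4 the groups did not overlap. Without each library it was -0.04 (without THZ1 replicate 2) to 0.96. The difference in median enrichment (THZ1 minus vehicle, -0.67) was -0.74 with no extension, -0.73 with all 4 FDR values at or below 0.01, -1.39 with the same number of loops, and -0.71 to -0.64 without each library. The difference in median size was 0 to 5 kb without each library.

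Without each library, the difference in the share inside a contact domain was 10.9 to 13.4 points, inside a larger loop -4.05 to 0.58, divergent 2.40 to 3.97, convergent -1.46 to -0.98 and same direction -2.65 to -1.28. Vehicle-only loops numbered 721, 596, 560 and 520 and THZ1-only loops 17, 39, 43 and 44 without vehicle replicate 1, vehicle replicate 2, THZ1 replicate 1 and THZ1 replicate 2, since fewer lists then have to meet the condition. THZ1-only loops numbered 16 with a 10 kb distance and 44 with identical anchors.

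Loops called weaker with THZ1 (77 of 212) numbered 75 with the bottom-left, 12 with the horizontal and 11 with the vertical expectation, 14 with TMM and 13 with DESeq2's size factors in place of an expectation, and 5 in DESeq2 with the donut expectation. Over all loops the counts were 604, 48, 59, 114, 110 and 34 in the same order, against 658. They were 0 to 0 without each library, as over all loops. TMM and DESeq2's size factors each called 1 higher. Leaving out loops with an expectation of 0 in any neighborhood, an alternative added after the data were seen, gave 86 of 212 and 721 of 2617 over all loops. The cause of these differences was not tested. The 5 named loops kept a fall under all settings that gave a value (12 or 13 each), with the adjusted p under 0.05 in 4 to 8 of them. With no expectation (DESeq2's size factors) their log2 ratios shrank to -0.63 for SLC35A3, -0.71 for KBTBD6, -0.43 for SCRN1, -0.63 for HNRNPL and -0.34 for RCHY1, with edgeR adjusted p from 0.0395 to 0.482.

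A fit with the replicate number as a block called 89 of the 212 and 755 of all 2623 loops weaker, and within-number ratios gave 1.95 for loops and 1.92 for gene pairs. Deviations of same-numbered libraries had r = -0.01 over 2623 loops and 0.05 over the 212. With 2 libraries per condition and few contacts per loop, this cannot exclude a pairing, and the numbers were not used as one. The block changed no call of the 5 named loops.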
